A study of Homo sapiens with 12 samples.

Results

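Class I antigen presentation was examined through 9 genes of the 20263 in the deposited table: the heavy chain genes HLA-B, HLA-C, HLA-E and HLA-F, the light chain gene B2M, the peptide transporter genes TAP1 and TAP2, and the immunoproteasome subunit genes PSMB8 and PSMB9. They were chosen as a list of names with earlier results of these data known, and all 9 passed the filter on low values, which kept 11731 genes. The cells were U87 (U-87 MG), an established human glioblastoma line, and all were held in hypoxia with 1% O2, for 72 h according to the series record. The paper's methods give a shorter hypoxia for mRNA detection, and name the drug temozolomide for assays with longer hypoxia. The treatment labels of these libraries name no drug. Cells with an empty vector (vector) stood beside cells lacking HIF1α (HIF1α-ko), lacking HIF2α (HIF2α-ko) or lacking both (the dual knockout, HIF1α/2α-ko), and 3 libraries were made for each of the 4 groups, so that every comparison is between hypoxic cells and none is with normoxia. How the knockouts were made, whether each is 1 clone, and whether the 3 libraries of a group came from separate cultures are not given in the sources used here, so the p-values measure the spread between libraries, which may be technical.

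Class I molecules display short peptides from inside the cell to CD8 T cells and natural killer cells. The proteasome cuts the peptides, in part through the inducible subunits encoded by PSMB8 and PSMB9, the TAP1-TAP2 transporter carries them into the endoplasmic reticulum, and there they are loaded onto a heavy chain paired with beta-2-microglobulin, the product of B2M. HLA-B and HLA-C are classical, highly polymorphic heavy chains that present to T cells, HLA-E presents mainly signal peptides of other class I chains to natural killer receptors, and HLA-F is a non-classical chain of more restricted expression. HIF1α and HIF2α (encoded by HIF1A and EPAS1) are the oxygen-regulated subunits of the hypoxia-inducible transcription factors.

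Of these genes, 8 lie in the major histocompatibility complex on chromosome 6 and B2M lies on chromosome 15. In GENCODE 29 (GRCh38) TAP1 spans chr6:32845209-32853978 on the minus strand, PSMB8 spans chr6:32840717-32844703 on the minus strand, and PSMB9 (chr6:32844136-32859585, plus strand) overlaps them both. TAP1 and PSMB9 are transcribed away from each other, from RefSeq starts 488 bp apart. The gene model of HLA-B (chr6:31269491-31357188) runs over HLA-C (chr6:31268749-31272130) on the same strand, HLA-E lies at chr6:30489467-30494205, HLA-F at chr6:29722775-29738528, TAP2 at chr6:32821833-32838780 and B2M at chr15:44711487-44718877. Whether reads were counted by strand is not given in the sources used here, and HLA genes resemble each other closely and differ between people, so reads may have been split or shared among overlapping genes and among HLA paralogs, and the heavy chain values are uncertain to that extent.

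Promoter sequence was available for 8 of the 9 genes in the RefSeq table (GRCh38.p14), and not for HLA-E. The stretches below lie just before the start of transcription and are shown because they let the 2 heavy chain genes that fell, HLA-B and HLA-C, be read beside HLA-F, B2M and the transporter genes. Capitals mark matches, on either strand, to an interferon response element core (GAAANNGAA), the class I form of this element (GAAGTGAAA), a kappaB element (GGGGATTC) or an X2 box (TGACGC); in TAP1 and B2M, 2 overlapping matches of the core form 1 run of capitals. Bases are given 5′ to 3′ on the strand of the gene.
HLA-B, chr6:31357260-31357379, minus strand: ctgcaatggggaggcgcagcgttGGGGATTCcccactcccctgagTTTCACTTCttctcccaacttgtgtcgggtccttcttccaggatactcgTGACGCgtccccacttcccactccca
HLA-C, chr6:31272173-31272292, minus strand: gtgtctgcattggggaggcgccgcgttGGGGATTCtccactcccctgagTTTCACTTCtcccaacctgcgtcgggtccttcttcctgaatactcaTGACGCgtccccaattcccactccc
HLA-F, chr6:29723234-29723353, plus strand: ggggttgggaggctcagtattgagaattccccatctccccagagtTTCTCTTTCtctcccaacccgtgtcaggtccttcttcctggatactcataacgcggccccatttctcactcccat
B2M, chr15:44711357-44711416, plus strand: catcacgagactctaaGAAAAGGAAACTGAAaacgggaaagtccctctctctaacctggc
TAP1, chr6:32853745-32853864, minus strand: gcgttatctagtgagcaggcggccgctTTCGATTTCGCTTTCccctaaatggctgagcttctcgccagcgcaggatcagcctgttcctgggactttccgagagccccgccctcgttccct
TAP2, chr6:32838760-32838829, minus strand: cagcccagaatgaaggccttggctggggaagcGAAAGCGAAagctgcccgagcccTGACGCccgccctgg
HLA-B and HLA-C carried the same 3 elements in the same order: the kappaB element, the class I response element read on the opposite strand, and the X2 box. HLA-F had the response element core in the corresponding place, with neither the kappaB nor the X2 letters in its window. B2M and TAP1 had the overlapping cores, and TAP2 had a core followed by X2 letters. Over all 35116 windows of the same 300-base form (250 bases before the start to 50 after), the core was found in 8.11%, the class I form in 0.51%, the kappaB letters in 0.888% and the X2 letters in 9.14%. The hypoxia response element, to which HIF binds, was searched as ACGTG and GCGTG: the former was found only in PSMB9 among the 8 genes (21.4% of all windows) and the latter in HLA-B, HLA-F, B2M, TAP1, PSMB8 and PSMB9 (36.5%). PSMB8, whose stretch is not printed, had the core and the class I form overlapping at its start. PSMB8 and TAP1 have a pair of windows each. A match of letters is a description of the window and not evidence of binding.

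Values were in TPM (reads divided by gene length and scaled to a fixed total). Column totals ran from 999955 to 999982, and how deeply each library was sequenced is unknown. The vector libraries had a within-group Pearson's r of 0.983 to 0.994 and the knockout libraries 0.987 to 0.996 on the log2 scale across genes, with the pairs that include replicate 1 lowest in each group. The share of TPM in mitochondrial genes ran from 0.517% to 3.17%, and replicate 1 was highest in every group. HIF1A was 124 ± 23.5 TPM in vector (mean ± SD, n = 3), and 48.5 ± 9.35, 86.8 ± 18.1 and 75.5 ± 11.9 TPM after loss of HIF1α, HIF2α and both. EPAS1 was 322 ± 31.5, 265 ± 20.2, 107 ± 17.0 and 117 ± 14.4 TPM in the same order. Each knocked-out gene was lower than vector in the groups that lack it without being absent (adjusted p = 0.000851 and 0.0104 for HIF1A, and 0.000375 and 1.3e-05 for EPAS1). HIF1A was also below vector in every HIF2α-ko library (76.1 to 108 TPM beside 110 to 151). The dual knockout (67.8 to 89.2 TPM) overlapped with HIF2α-ko and lay above HIF1α-ko (38.6 to 57.3 TPM). HIF1A mRNA alone therefore does not set HIF1α/2α-ko apart from HIF2α-ko. The summed astrocytic and mesenchymal list was 13994 to 18002 TPM in vector, 11088 to 13157 in HIF1α-ko, 8563 to 10822 in HIF2α-ko and 7528 to 11073 in HIF1α/2α-ko, lower in every knockout library than in any vector library. Of its 10 markers, 7 reached 1 TPM in at least 3 libraries, and GFAP, S100B and SOX2 did not. Of 11 leukocyte markers only CD68 and CSF1R did, PTPRC stayed at or below 0.0330 TPM, and the 10 apart from CD68 summed to between 3.37 and 9.41 TPM. CD68 itself ran from 587 to 1633 TPM, and the summed leukocyte list was 1288 to 1639 TPM in vector, 821.7 to 1068 in HIF1α-ko, 1016 to 1230 in HIF2α-ko and 590.6 to 821.7 in HIF1α/2α-ko. The summed fibroblast and pericyte list ran from 139.5 to 235.6 TPM and the endothelial list from 1.15 to 7.13 TPM over all libraries. The part of these lists in the results was not tested.

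Loss of HIF1α, alone or with HIF2α, went with less HLA-B and HLA-C mRNA and more TAP1 mRNA, whereas HLA-E, HLA-F and PSMB8 were higher in HIF1α-ko. By limma, 6 of the 9 genes passed an adjusted p of 0.05 in HIF1α-ko against vector (4 higher, 2 lower), beside 26.1% of all tested genes (17.3% higher, 8.77% lower). In HIF1α/2α-ko 5 passed (3 higher, 2 lower), beside 46.7% of all genes (31.8% higher, 14.8% lower), a share near that of the 9. In HIF2α-ko 0 passed, beside 11% of all genes (5.07% higher, 5.89% lower), with 4 of the 9 at an unadjusted p under 0.05 and 0 to 3 called under other settings. Between the groups, HIF1α/2α-ko differed from HIF2α-ko in 4 genes (2 higher, 2 lower; 46.4% of all genes, 33.5% higher and 12.9% lower) and from HIF1α-ko in 1, HLA-F, which was lower (28.3%, 17.7% higher and 10.6% lower). Against vector, the tested genes as a whole had a median log2 fold change of 0.18, -0.04 and 0.21 after loss of HIF1α, HIF2α and both, and median ratio scaling of the libraries brought these to 0.01, 0.00 and 0.01. The medians of the 9 genes were 0.41, 0.26 and 0.25. With that scaling, 2 genes (HLA-B and HLA-C, both lower) stayed called in HIF1α-ko, beside 24% of all genes (10.9% higher, 13.1% lower). In HIF1α/2α-ko 4 did (2 higher, 2 lower), beside 46.6% of all genes (24.3% higher, 22.3% lower). Both total shares lie near those of the 9. Relative to the typical gene, the falls were larger and the rises smaller than in the deposited units. The count in HIF1α-ko was lower without some libraries, as was the share called of all genes: it was 3 without vector replicate 2 (15.4% of all genes), 2 without vector replicate 3 (14%), 3 without HIF1α-ko replicate 2 (14.4%) and 3 without HIF1α-ko replicate 3 (13.2%).

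**Figure D1:**
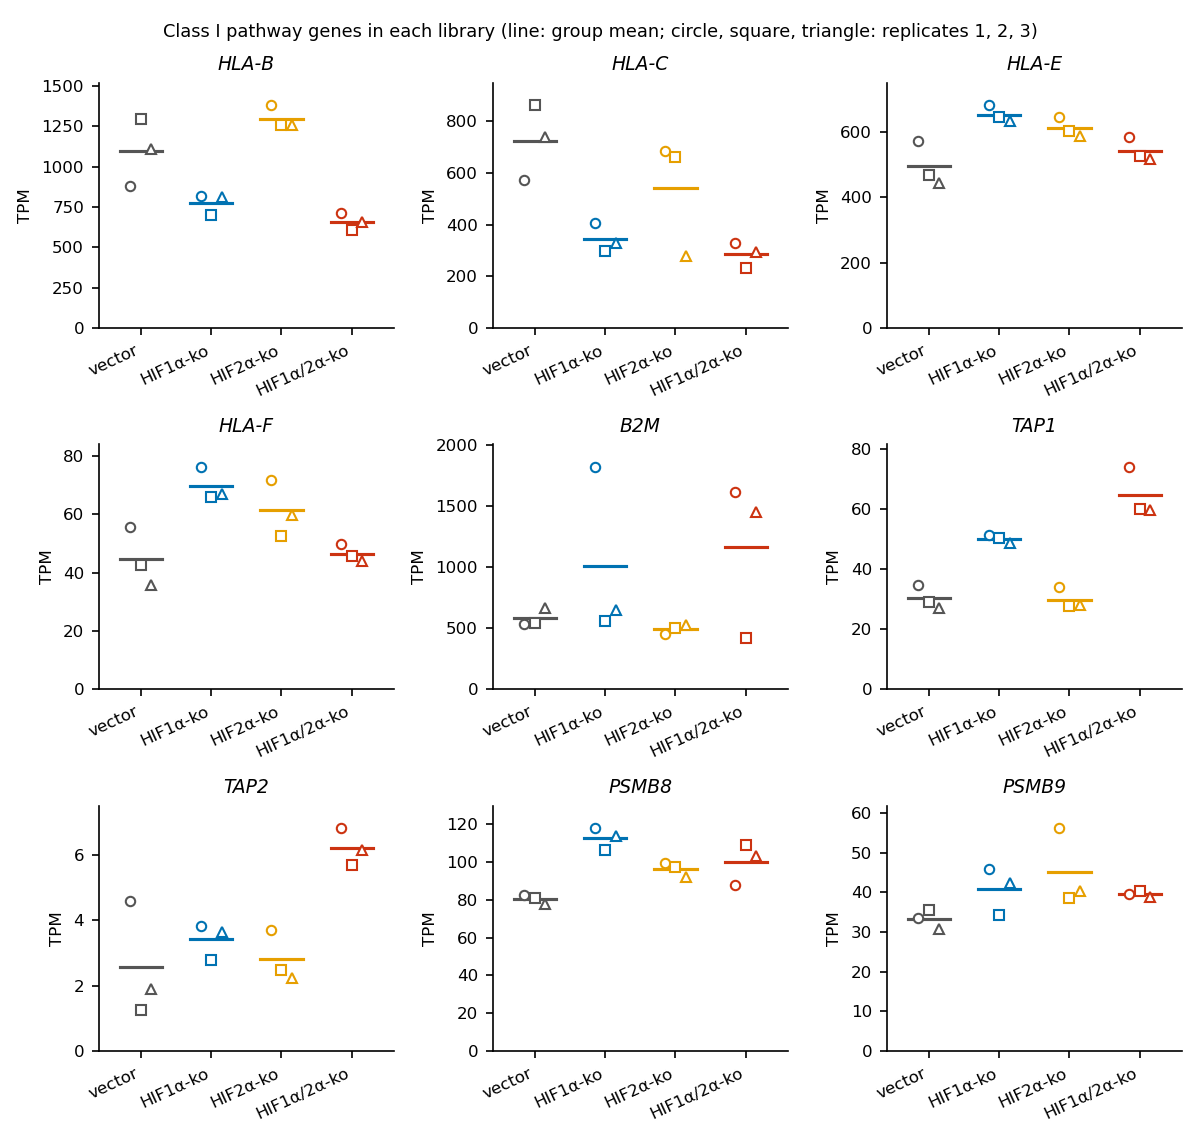
TPM of the 9 class I genes in each of the 12 libraries, with 1 panel per gene, libraries of a group side by side (circle, square and triangle for replicates 1, 2 and 3) and a line at the group mean. HLA-B and HLA-C sit low in HIF1α-ko and HIF1α/2α-ko, TAP1 sits high in the same groups, and B2M stands high in 3 libraries, at 1458 to 1825 TPM.

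HLA-B was among the most abundant mRNAs of these cells, at a median rank of 179 among the genes of a library. Its values were 878, 1295 and 1108 TPM in vector, 817, 703 and 813 with HIF1α lost, 1380, 1255 and 1256 with HIF2α lost, and 713, 604 and 657 with both lost, in the order of the replicate numbers. Every HIF1α-ko and HIF1α/2α-ko library was below every vector library, and the HIF2α-ko libraries overlapped with vector. The log2 fold change against vector was -0.48 in HIF1α-ko (SE 0.14, adjusted p = 0.0245) and -0.72 in the dual knockout (SE 0.14, adjusted p = 0.00112), and that of HIF2α-ko was 0.26 (adjusted p = 0.245). HIF1α/2α-ko was lower than HIF2α-ko by 0.98 on the log2 scale (adjusted p = 0.000131), with no overlap. The fall in HIF1α-ko lost its call without vector replicate 2 (-0.35, adjusted p = 0.0983), vector replicate 3 (0.0760), HIF1α-ko replicate 2 (0.101) or HIF1α-ko replicate 3 (0.0559), and with the groups of the contrast alone (0.0753), while the fall in HIF1α/2α-ko kept an adjusted p of 0.0102 or below in all 21 alternatives.

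HLA-C showed a larger fall with a wider spread. The libraries gave 574, 862 and 741 TPM in vector, 405, 297 and 327 with HIF1α lost, 685, 660 and 278 with HIF2α lost, and 330, 231 and 294 with both lost. All libraries of HIF1α-ko and HIF1α/2α-ko were again below vector, and HIF2α-ko replicate 3 stood with them, far from the other two libraries of its group. HLA-C fell by 1.07 on the log2 scale in HIF1α-ko (SE 0.30, adjusted p = 0.0203) and by 1.34 in HIF1α/2α-ko (SE 0.30, adjusted p = 0.00275), and its difference in HIF2α-ko was -0.51 (95% interval -1.15 to 0.13, adjusted p = 0.292), or -0.09 without HIF2α-ko replicate 3 (adjusted p = 0.841) and -0.90 (adjusted p = 0.0843) with each group's replicate 1 left out. The fall in HIF1α-ko had an adjusted p of 0.0644 to 0.0789 when vector replicate 2, vector replicate 3, HIF1α-ko replicate 2 or HIF1α-ko replicate 3 was left out. HIF1α/2α-ko was lower than HIF2α-ko by 0.83 (adjusted p = 0.0359), a call lost without HIF2α-ko replicate 1 (0.145), HIF2α-ko replicate 2 (0.138), HIF1α/2α-ko replicate 2 (0.126) or HIF1α/2α-ko replicate 3 (0.0705), without replicate 1 of every group (0.114), with no filter (0.0700) and with the groups of the contrast alone (0.0781). Without HIF2α-ko replicate 3 the same difference was -1.25 (adjusted p = 0.000715). Over the 12 libraries HLA-B and HLA-C varied together with Pearson's r of 0.749, libraries that share group and replicate structure.

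HLA-E, at a median rank of 251 beside 398 for HLA-C, moved the other way in HIF1α-ko. Its values were 573, 467 and 444 TPM in vector, 682, 645 and 633 with HIF1α lost, 645, 604 and 587 with HIF2α lost, and 585, 527 and 516 with both lost. The single knockouts lay above all vector libraries, and the dual knockout overlapped with vector. The log2 fold change was 0.41 in HIF1α-ko (SE 0.11, adjusted p = 0.0207), 0.31 in HIF2α-ko (95% interval 0.07 to 0.56, adjusted p = 0.0970) and 0.14 in the dual knockout (adjusted p = 0.334); with median ratio scaling the value in HIF1α-ko was 0.21 (adjusted p = 0.359) and that in HIF1α/2α-ko turned to -0.09. The call in HIF1α-ko was also lost without vector replicate 2 (0.0704), vector replicate 3 (0.0865), HIF1α-ko replicate 1 (0.0522), HIF1α-ko replicate 2 (0.0586) or HIF1α-ko replicate 3 (0.0532), and with the groups of the contrast alone (0.0737), and one in HIF2α-ko was gained without vector replicate 1 (0.42, adjusted p = 0.00808), without replicate 1 of every group (0.00296), with quantile normalization (0.0495) and with a replicate block over all groups (0.0283). In HIF1α/2α-ko a call was gained without vector replicate 1 (0.25, adjusted p = 0.0407) and with each group's replicate 1 left out (0.0239).

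HLA-F was less abundant and followed the same order of groups. It was 55.4, 42.7 and 35.8 TPM in vector, 76.2, 65.8 and 66.8 with HIF1α lost, 71.6, 52.6 and 59.7 with HIF2α lost, and 49.9, 45.6 and 44.0 with both lost. HIF1α-ko lay wholly above vector and above HIF1α/2α-ko, and the dual knockout lay within the range of vector. HLA-F rose by 0.65 in HIF1α-ko (SE 0.17, adjusted p = 0.0146), differed by 0.46 in HIF2α-ko (adjusted p = 0.0974) and by 0.08 in HIF1α/2α-ko (adjusted p = 0.731), and the dual knockout was lower than HIF1α-ko, with a log2 difference of -0.57 (adjusted p = 0.0219). In HIF2α-ko a call was gained with a replicate block over all groups (0.46, adjusted p = 0.0259), without vector replicate 1 (0.62, adjusted p = 0.0126) and with each group's replicate 1 left out (0.0102). The rise in HIF1α-ko was 0.45 (adjusted p = 0.121) with median ratio scaling and 0.50 (adjusted p = 0.0659) without vector replicate 3, and the difference between the knockouts had an adjusted p of 0.0756 without HIF1α-ko replicate 1, 0.0652 without HIF1α/2α-ko replicate 2 and 0.0749 without HIF1α/2α-ko replicate 3. HLA-E and HLA-F varied together most closely of all pairs of the 9 genes over the 12 libraries, with Pearson's r of 0.953.

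The effect of losing both factors departed from the sum of the single effects for these non-classical chains. The interaction term is the change in the dual knockout less the changes in the single knockouts. It was -0.58 for HLA-E (SE 0.16, adjusted p = 0.0241) and -1.03 for HLA-F (SE 0.23, adjusted p = 0.0104). These were 2 of the 9 genes, both negative, beside 20.6% of all genes (13.2% positive, 7.35% negative). Only with both directions counted together is the share of all genes near that of the 9. For HLA-F the term held under all 20 alternatives, with an adjusted p of 0.0295 or below, while for HLA-E it was -0.66 with median ratio scaling (adjusted p = 0.0547) and reached an adjusted p of 0.0507 to 0.0647 without replicate 2 or 3 of vector, 1 of HIF1α-ko, 1 or 2 of HIF2α-ko, or 2 or 3 of HIF1α/2α-ko. The term for HLA-B was -0.50 (adjusted p = 0.0866) and that for HLA-C was 0.24 (adjusted p = 0.713).

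**Figure D2:**
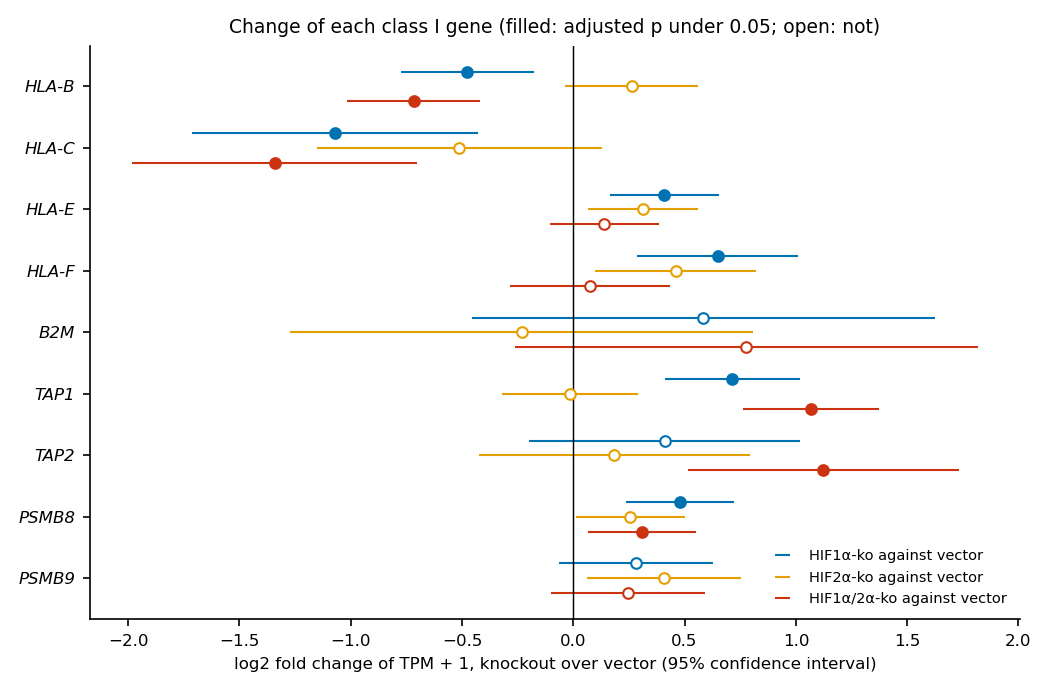
Log2 fold change of TPM + 1 of each gene in the 3 knockout groups against vector, with 95% confidence intervals from limma; filled points have an adjusted p under 0.05 and open points do not. HLA-B and HLA-C lie left of 0 and TAP1 right of 0 in HIF1α-ko and HIF1α/2α-ko, no point of HIF2α-ko is filled, and B2M has wide intervals.

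B2M, whose product pairs with class I heavy chains, did not pass the test in any comparison, and its libraries differed widely within the groups that lack HIF1α. It was 538, 543 and 671 TPM in vector and 455, 503 and 530 in HIF2α-ko, but 1825, 558 and 649 in HIF1α-ko and 1615, 420 and 1458 in HIF1α/2α-ko. The 3 libraries at 1458 to 1825 TPM all belong to groups without HIF1α, and the remaining libraries of those groups lay at 420 to 649 TPM. Its SD within groups was 0.720 on the log2 scale, exceeded by only 22 of the 1286 genes with a mean of at least 100 TPM, whose median was 0.192. The log2 fold change was 0.58 in HIF1α-ko (95% interval -0.46 to 1.62, adjusted p = 0.385) and 0.78 in HIF1α/2α-ko (95% interval -0.26 to 1.82, adjusted p = 0.203). Without HIF1α/2α-ko replicate 2 the latter was 1.40 (adjusted p = 0.0130) and the difference from HIF2α-ko, 1.01 in all libraries (adjusted p = 0.103), was 1.63 (adjusted p = 0.00587), and with replicate 1 removed from every group the former was -0.0048 (adjusted p = 0.995). Mitochondrial genes took 1.72%, 2.23% and 1.23% of TPM in the 3 libraries with high B2M. They took 0.747% to 1.08% in the other libraries of the same groups. In vector and HIF2α-ko it was otherwise: replicate 1 had the highest share of its group (3.17% and 0.884%) and the lowest B2M (538 and 455 TPM). The part of mitochondrial genes in the B2M values was not tested.

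Both transporter genes rose in the dual knockout, and TAP1 also in HIF1α-ko. TAP1 was 34.6, 28.95 and 27.2 TPM in vector, 51.3, 50.3 and 48.5 with HIF1α lost, 33.9, 27.9 and 27.9 with HIF2α lost, and 73.9, 59.8 and 59.6 with both lost. The groups separated into an order in which HIF1α/2α-ko was above HIF1α-ko and HIF1α-ko above the overlapping vector and HIF2α-ko libraries. TAP1 rose by 0.71 in HIF1α-ko (SE 0.14, adjusted p = 0.00393) and by 1.07 in HIF1α/2α-ko (SE 0.14, adjusted p = 8.4e-05), and differed by -0.02 in HIF2α-ko (95% interval -0.32 to 0.29, adjusted p = 0.961). Relative to HIF2α-ko, the dual knockout was higher by 1.08 (adjusted p = 7.55e-05). The rise in HIF1α/2α-ko held in all 21 alternatives, and that in HIF1α-ko in 20, the exception being median ratio scaling (0.52, adjusted p = 0.0549).

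TAP2, the partner half-transporter, was much less abundant per length than TAP1. Its libraries were at 4.57, 1.25 and 1.88 TPM in vector, 3.81, 2.80 and 3.64 with HIF1α lost, 3.70, 2.48 and 2.24 with HIF2α lost, and 6.81, 5.67 and 6.16 with both lost. The dual knockout lay above all other libraries, and vector replicate 1 was higher than every single-knockout library. TAP2 rose by 1.12 in HIF1α/2α-ko against vector (SE 0.28, adjusted p = 0.00593) and by 0.94 against HIF2α-ko (adjusted p = 0.0160), and its difference in HIF1α-ko was 0.41 (adjusted p = 0.293), or 0.79 (adjusted p = 0.0117) without vector replicate 1. The difference from HIF2α-ko was 0.60 (adjusted p = 0.121) with quantile normalization, 0.72 (adjusted p = 0.0611) with median ratio scaling, 0.88 (adjusted p = 0.0509) without HIF2α-ko replicate 2 and 0.83 (adjusted p = 0.0585) without HIF2α-ko replicate 3. TAP1 and TAP2 varied together with Pearson's r of 0.825, and TAP1 ran opposite to HLA-B with r of -0.894, over the same 12 libraries.

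The immunoproteasome genes differed less, and PSMB8 passed the test in HIF1α-ko and HIF1α/2α-ko. PSMB8 was 82.6, 80.9 and 77.7 TPM in vector, 118, 107 and 114 with HIF1α lost, 99.4, 97.4 and 91.9 with HIF2α lost, and 87.9, 109 and 103 with both lost. All knockout libraries were above all vector libraries. PSMB8 rose by 0.48 in HIF1α-ko (SE 0.11, adjusted p = 0.00949; 0.28 and 0.131 with median ratio scaling) and by 0.31 in HIF1α/2α-ko (SE 0.11, adjusted p = 0.0393), and its difference in HIF2α-ko was 0.26 (adjusted p = 0.166; 0.0383 without replicate 1 of every group). The call in HIF1α/2α-ko held in 9 of 21 alternatives: it was lost with median ratio scaling (0.08, adjusted p = 0.627), with quantile normalization (0.14, 0.324), with no mean-variance trend (0.0622), with the groups of the contrast alone (0.128) and without replicate 2 or replicate 3 of any of the 4 groups, with an adjusted p of 0.0511 to 0.160. PSMB9 was 33.6, 35.5 and 30.7 TPM in vector, 45.9, 34.3 and 42.4 with HIF1α lost, 56.1, 38.7 and 40.2 with HIF2α lost, and 39.7, 40.2 and 38.9 with both lost. The HIF2α-ko and HIF1α/2α-ko libraries lay above vector, those of HIF1α-ko overlapped, and no comparison of PSMB9 passed the test; its log2 fold changes against vector were 0.28, 0.41 and 0.25 (adjusted p = 0.206, 0.123 and 0.223).

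Counted by library alone, HIF1α-ko lay wholly above vector for 4 of the 9 genes and wholly below for 2, beside 27.3% and 12.3% of all tested genes. HIF2α-ko lay above for 3 and below for 1 (12.6% and 18% of all genes), and HIF1α/2α-ko above for 4 and below for 2 (33.1% and 17.4%). The dual knockout lay above HIF1α-ko for 2 and below it for 2 (25.6% and 18.7%), and above HIF2α-ko for 2 and below it for 3 (38.8% and 17.9%). The same vector libraries enter the comparisons with vector, so the counts are not independent of one another.

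The same replicate number went with shared deviations among the 3 knockout groups, and with this number as a replicate block in a fit of those groups, 5 of the 9 genes rather than 1 differed between HIF1α/2α-ko and HIF1α-ko, beside 48.7% rather than 28.3% of all genes. HLA-B (-0.24, adjusted p = 0.0130), HLA-E (-0.27, adjusted p = 0.00469) and HLA-F (-0.57, adjusted p = 0.00112) were lower in the dual knockout, and TAP1 (0.35, adjusted p = 0.0101) and TAP2 (0.71, adjusted p = 0.00285) were higher. In the unblocked fit of all groups the adjusted p of HLA-B was 0.216, of HLA-E 0.0942, of TAP1 0.0791 and of TAP2 0.0763. A fit of those groups with no block, added after the data were seen, called 3 genes (33% of all genes). Against HIF2α-ko, 4 genes were called in the fit of all groups (46.4% of all genes), 5 in the knockout groups with no block (49.9%), where HLA-F was added as lower (-0.38, adjusted p = 0.0325), and 6 with the block (62.8%), where HLA-E was added as lower (-0.17, adjusted p = 0.0223). All these shares called of the 9 genes against HIF2α-ko lie near those of all genes. So do the shares against HIF1α-ko in the fits of the knockout groups, with and without the block.

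Ratios taken inside each library compared inducible with constitutive proteasome subunits and heavy chains with B2M. The immunoproteasome replaces the constitutive subunits encoded by PSMB5, PSMB6 and PSMB7 with those encoded by PSMB8, PSMB9 and PSMB10. The log2 ratio of PSMB9 to PSMB6 was -1.03, -0.48 and -0.63 in vector and -1.69, -1.97 and -1.84 in HIF1α/2α-ko, a difference of -1.12 with no overlap. PSMB10 to PSMB7 was -1.43, -1.23 and -1.47 in vector and -2.04, -2.27 and -2.25 in HIF1α/2α-ko, a difference of -0.81 with no overlap. PSMB8 to PSMB5 differed by -0.53 in HIF1α/2α-ko and by -0.39 in HIF2α-ko, and in HIF1α-ko the ratios differed by -0.20, -0.32 and -0.27 for PSMB8, PSMB9 and PSMB10. Single libraries moved some of these: PSMB8 to PSMB5 was -0.33 in HIF1α/2α-ko without its replicate 1, and in HIF1α-ko -0.099 without its replicate 2 and -0.11 without vector replicate 2, and PSMB9 to PSMB6 in HIF1α-ko was -0.20 without vector replicate 2 and -0.21 without HIF1α-ko replicate 3. The summed heavy chains to B2M stood at 1.95, 2.29 and 1.79 in vector, 0.12, 1.61 and 1.501 with HIF1α lost, 2.61, 2.35 and 2.04 with HIF2α lost, and 0.05, 1.74 and 0.05 with both lost, so the groups without HIF1α lay below vector, by 0.93 and 1.40 on average, with the libraries of high B2M lowest. Without HIF1α-ko replicate 1, the library of that group with high B2M, the first of these differences was -0.45. Of 12 such comparisons with vector, 7 reached an exact two-sided permutation p of 0.1, the smallest that 3 against 3 libraries allow, with an adjusted p of 0.171, so none could pass 0.05.

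**Figure D3:**
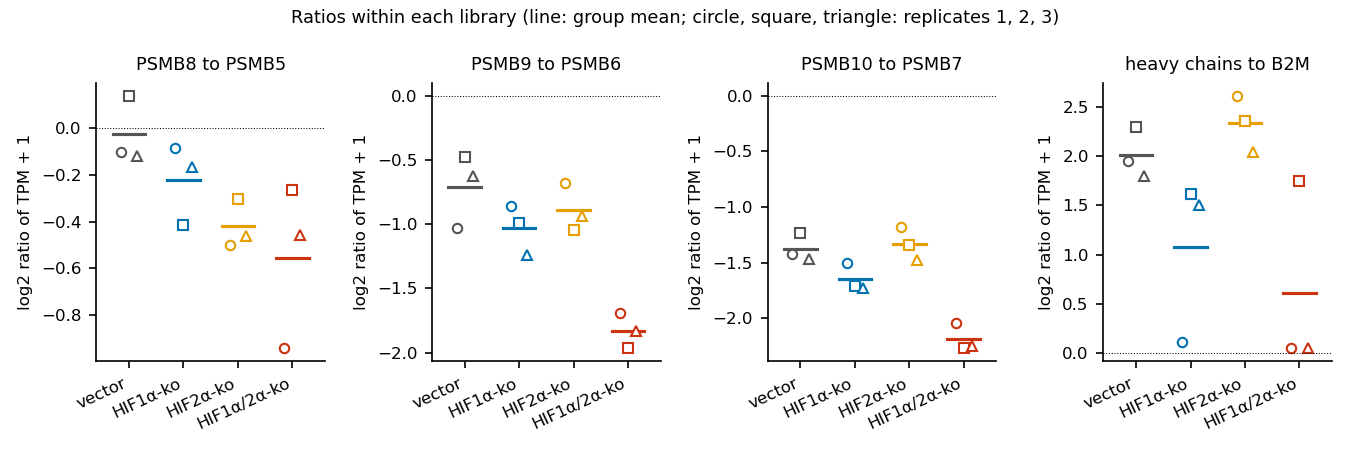
Log2 ratio of TPM + 1 in each library for 3 pairs of inducible and constitutive proteasome subunits and for the summed heavy chains (HLA-B, HLA-C, HLA-E, HLA-F) over B2M, with symbols for replicates and a line at the group mean; each panel has its own scale. PSMB9 to PSMB6 and PSMB10 to PSMB7 are lowest in HIF1α/2α-ko, and the heavy chain ratio is near 0 in the 3 libraries with high B2M.

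Most constitutive proteasome genes rose in the dual knockout. The counts of this and the following lists stand beside the shares of all tested genes. In HIF1α/2α-ko these were 31.8% higher and 14.8% lower (24.3% and 22.3% with median ratio scaling). In HIF1α-ko they were 17.3% and 8.77% (10.9% and 13.1% with that scaling), and in HIF2α-ko 5.07% and 5.89%. Of 8 other proteasome genes of the antigen pathway, 6 rose in HIF1α/2α-ko and 0 fell, with a median log2 fold change of 0.94 beside 0.21 for all genes. PSMB6, which carries a constitutive catalytic site, rose from 55.8 ± 11.9 to 144 ± 15.1 TPM (1.37, adjusted p = 6.11e-05), PSMB7 from 248 ± 31.6 to 455 ± 56.2 TPM (0.87, adjusted p = 0.000131) and PSME3, a nuclear proteasome activator, from 7.93 ± 1.83 to 29.9 ± 6.29 TPM (1.79, adjusted p = 0.000138). PSMB10 was 94.8 ± 10.7 TPM in vector, and 118 ± 9.28, 138 ± 12.8 and 98.7 ± 4.13 TPM after loss of HIF1α, HIF2α and both, and its log2 fold changes were 0.31, 0.54 and 0.06 (adjusted p = 0.0767, 0.0164 and 0.695), with an interaction of -0.79 (adjusted p = 0.00878). Of the 8 genes, 5 rose in HIF1α-ko (2 with median ratio scaling) and 4 in HIF2α-ko. All 11 remaining 20S core genes rose in HIF1α/2α-ko, 9 of them with median ratio scaling, and among these PSMA5 went from 7.27 ± 2.46 to 37.4 ± 6.55 TPM (2.24, adjusted p = 1.51e-05), PSMA7 from 144 ± 28.4 to 450.0 ± 72.2 TPM (1.64, adjusted p = 3.63e-05) and PSMB3 from 64.0 ± 19.2 to 197 ± 1.13 TPM (1.64, adjusted p = 4.13e-05). With HIF1α lost, 4 of these 11 rose and 1, PSMA6, fell (-0.44, adjusted p = 0.0353; chosen after its value was seen), and in HIF2α-ko 1 rose, PSMB4 (0.39, adjusted p = 0.0249; likewise).

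Of 9 genes of peptide loading and trimming, 4 fell and 1 rose in HIF1α/2α-ko, with a median of -0.26, and with median ratio scaling 4 fell and 0 rose. CALR, the chaperone calreticulin of the loading complex, was 2684 ± 147 TPM in vector, and 2240 ± 185, 1692 ± 62.2 and 1191 ± 195 TPM after loss of HIF1α, HIF2α and both, and fell by 0.66 in HIF2α-ko (adjusted p = 0.00623) and by 1.18 in HIF1α/2α-ko (adjusted p = 1.49e-05). PDIA3, the disulfide isomerase of the same complex, fell by 0.71 in HIF1α/2α-ko (631 ± 173 to 376 ± 14.99 TPM, adjusted p = 0.00365), and TAPBPL, a tapasin-related peptide editor, fell by 0.76 (22.1 ± 2.24 to 12.5 ± 0.463 TPM, adjusted p = 0.000753). TAPBP, tapasin itself, was 110 ± 51.8 TPM in vector and 87.8 ± 27.4 in HIF1α/2α-ko (-0.26, adjusted p = 0.475). With HIF1α lost, 0 of the 9 passed by limma, with 3 at an unadjusted p under 0.05, and in HIF2α-ko CALR alone passed.

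Among the regulators of class I transcription, IRF1 rose most. This interferon-responsive activator was at 4.39, 1.54 and 1.82 TPM in vector, and 8.38 ± 2.02, 5.55 ± 1.43 and 42.1 ± 5.25 TPM after loss of HIF1α, HIF2α and both, with log2 fold changes of 1.45, 0.93 and 3.66 (adjusted p = 0.00343, 0.0496 and 2.3e-06) and an interaction of 1.29 (adjusted p = 0.0367). RFX5, a factor of the X box, rose from 3.40 ± 1.94 to 9.74 ± 4.43 TPM (1.29, adjusted p = 0.0166), and BATF3 from 1.49 ± 0.477 to 7.003 ± 1.67 TPM (1.68, adjusted p = 4.5e-05). The RFX5 libraries of the dual knockout (5.30 to 14.2 TPM) overlapped with those of vector (1.82 to 5.56 TPM). NLRC5, the class I transactivator, was at 9.14, 3.27 and 2.22 TPM in vector (4.88 ± 3.73 TPM). It was at 6.17 ± 0.312, 7.14 ± 1.68 and 5.88 ± 0.211 TPM after loss of HIF1α, HIF2α and both. NLRC5 passed in no comparison with vector (adjusted p = 0.302, 0.237 and 0.324). Vector replicate 1 lay above every knockout library (5.67 to 9.02 TPM), and vector replicates 2 and 3 lay below them all. NFYC, a CCAAT-binding subunit, fell in all 3 knockouts, by 0.62, 0.56 and 0.79 (adjusted p = 0.00518, 0.0169 and 0.000371). In all, 8 of the 17 tested regulators rose and 1 fell in HIF1α/2α-ko (7 and 2 with median ratio scaling), beside 31.8% and 14.8% of all genes. In HIF1α-ko 5 rose and 2 fell, beside 17.3% and 8.77%, and in HIF2α-ko 1 rose and 2 fell, beside 5.07% and 5.89%.

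Upstream of these factors, 4 of 8 tested interferon receptor and kinase genes rose and 0 fell in HIF1α/2α-ko, beside 31.8% and 14.8% of all genes (3 and 1 with median ratio scaling, beside 24.3% and 22.3%). IFNGR1 and IFNGR2, the chains of the interferon gamma receptor, went from 6.33 ± 0.255 to 17.1 ± 2.36 TPM (1.30, adjusted p = 0.000436) and from 24.97 ± 5.01 to 41.4 ± 2.62 TPM (0.72, adjusted p = 0.00155), and SOCS1, an inhibitor of this signal, from 2.97 ± 1.38 to 5.83 ± 1.57 TPM (0.81, adjusted p = 0.0153). The SOCS1 libraries of the dual knockout (4.03 to 6.84 TPM) overlapped with those of vector (1.87 to 4.52 TPM). All 8 interferon genes looked at were listed at 0 in every library. Of 24 tested interferon-stimulated genes, 2 rose and 7 fell in HIF1α/2α-ko (2 and 8 with median ratio scaling), with a median of -0.21 beside 0.21 for all genes; 3 rose and 3 fell in HIF1α-ko, and 1 rose and 1 fell in HIF2α-ko. ISG15, a ubiquitin-like modifier, rose from 2.85 ± 0.761 to 13.1 ± 1.31 TPM (1.89, adjusted p = 1.23e-05). IFIT1, an RNA-binding antiviral protein, fell from 5.14 ± 1.20 to 0.949 ± 0.333 TPM (-1.65, adjusted p = 4.21e-05), and MX2, an antiviral GTPase, from 3.62 ± 1.41 to 1.52 ± 0.102 TPM (-0.83, adjusted p = 0.00611).

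**Figure D4:**
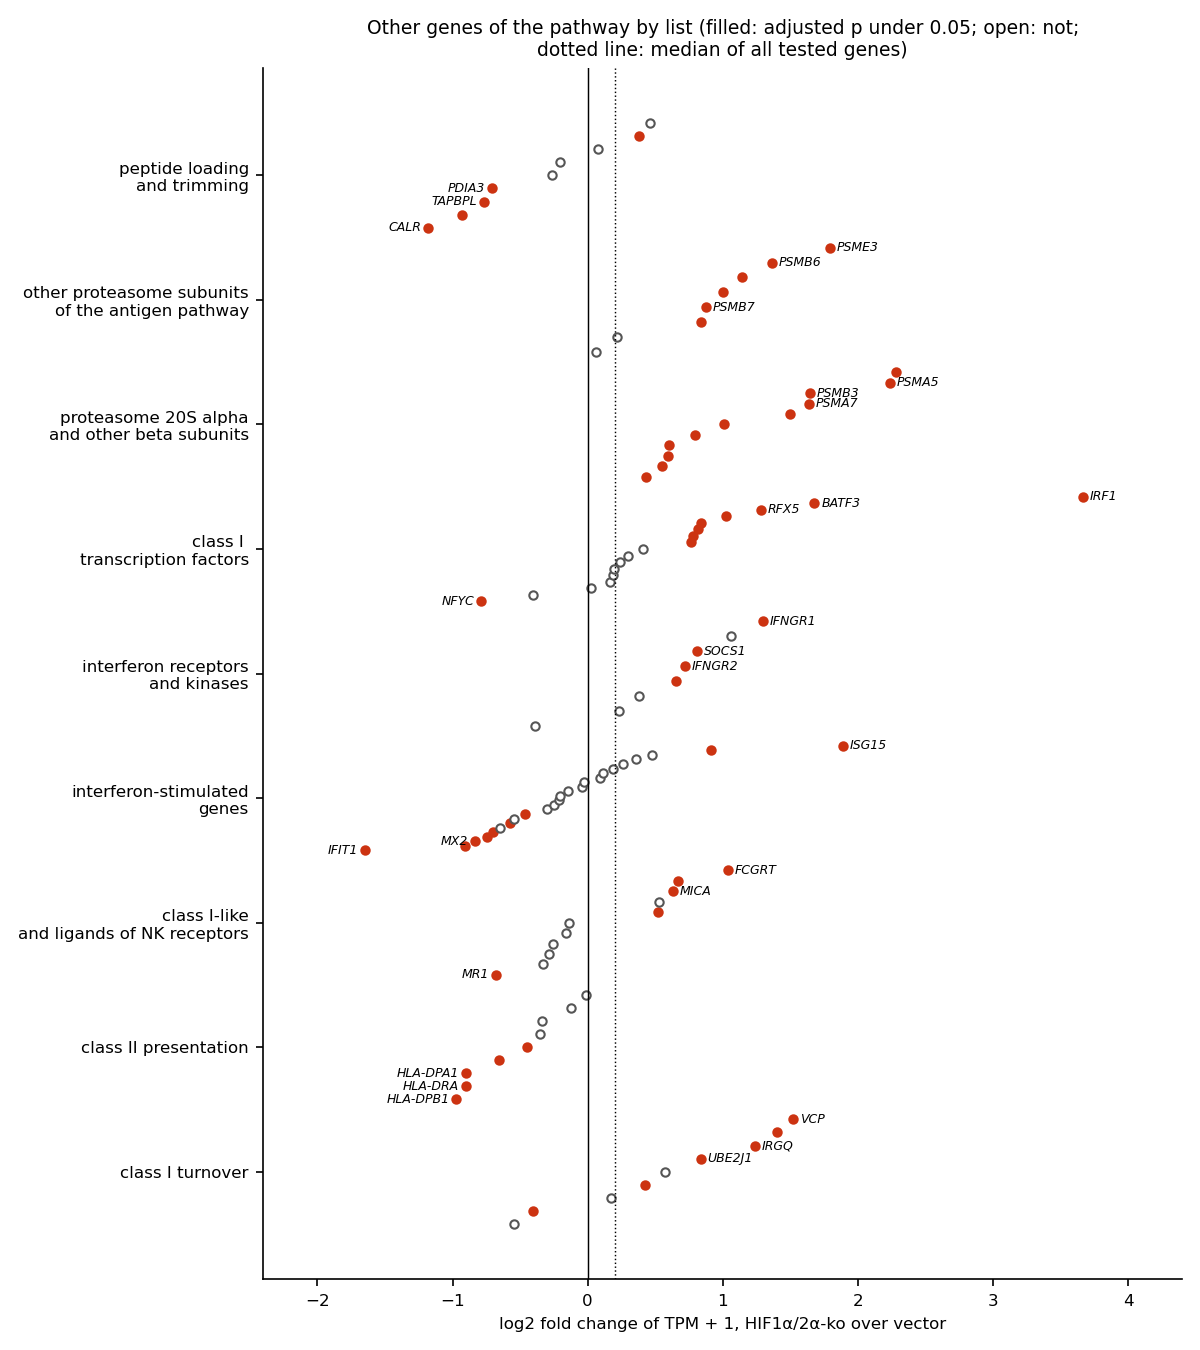
Log2 fold change of TPM + 1 in HIF1α/2α-ko against vector for the tested genes of each list, with filled points at an adjusted p under 0.05, open points otherwise and a dotted line at the median of all tested genes (0.21). Most proteasome genes lie to the right of the line and class II genes to the left, IRF1 stands apart at 3.66, and interferon-stimulated genes lie on both sides of 0.

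Other presentation genes divided. Of 9 tested class II genes, which serve presentation to CD4 T cells, 5 fell and 0 rose in HIF1α/2α-ko, the same counts as with median ratio scaling. HLA-DPA1 was 32.1 ± 4.12 TPM in vector, and 40.7 ± 2.84, 27.0 ± 1.64 and 16.6 ± 1.04 TPM after loss of HIF1α, HIF2α and both (-0.90, adjusted p = 0.000171), HLA-DPB1 was 3.54 ± 0.462, 4.86 ± 0.664, 5.52 ± 0.735 and 1.32 ± 0.290 TPM in the same order (-0.97, adjusted p = 0.000486), and HLA-DRA was 8.14 ± 0.231 TPM in vector and 3.91 ± 0.562 in the dual knockout (-0.90, adjusted p = 0.000565). CIITA, the class II transactivator, had a mean of 0.380 to 0.688 TPM and was not tested. Of 11 tested class I-like genes and ligands of natural killer receptors, 4 rose and 1 fell in HIF1α/2α-ko (2 and 2 with median ratio scaling), shares near the 31.8% and 14.8% of all genes. FCGRT, the neonatal Fc receptor, rose by 1.04 (adjusted p = 0.000365), MICA, a stress ligand of NKG2D, rose by 0.63 (adjusted p = 0.0315; 0.41 and 0.197 with median ratio scaling), and MR1, which presents microbial metabolites, fell by 0.68 (adjusted p = 0.0178). The MICA libraries of the dual knockout (157 to 213 TPM) overlapped with those of vector (85.9 to 175 TPM). HLA-G, a class I chain of the placenta, had a mean of 0.0377 to 0.162 TPM and was not tested.

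Of 9 genes of class I turnover, 5 rose and 1 fell in HIF1α/2α-ko (4 and 2 with median ratio scaling), beside 31.8% and 14.8% of all genes, 3 rose in HIF1α-ko, beside 17.3%, and 0 passed in HIF2α-ko by limma, with 1 at an unadjusted p under 0.05. VCP, the ATPase that pulls misfolded proteins from the endoplasmic reticulum, was 50.5 ± 23.8 TPM in vector and rose to 118 ± 2.88 TPM in HIF1α-ko (1.30, adjusted p = 0.00229) and to 138 ± 12.01 TPM in the dual knockout (1.52, adjusted p = 0.000203). IRGQ, an autophagy receptor for class I chains, rose from 1.29 ± 0.366 to 4.41 ± 0.871 TPM (1.24, adjusted p = 0.000148), and UBE2J1, a ubiquitin-conjugating enzyme of the same membrane, from 19.2 ± 1.92 to 35.1 ± 4.07 TPM (0.84, adjusted p = 0.000822).

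The genes whose pattern over the 12 libraries was most like the mean standardized level of the 9 were PLAAT4 (Pearson's r of 0.953), NDUFB11 (0.932), SEMA4F (0.916), PNKD (0.903) and GLIPR2 (0.902). They were picked for the highest r among the other tested genes. The 9 genes did not share 1 pattern, as HLA-B and HLA-C ran opposite to TAP1 (r of -0.894 and -0.712). Their mean therefore does not stand for each of the 9. PNKD was 61.1 ± 10.3 TPM in vector, and 104 ± 11.4, 94.4 ± 12.3 and 90.8 ± 11.6 TPM after loss of HIF1α, HIF2α and both. In bulk RNA a change in the mRNA per cell cannot be told apart from a change in the share of cells that carry it.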

How the data were processed

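The authors deposited 1 table of TPM values with 1 column per library, and none of its columns was left unassigned; the vector columns were recognised by the absence of a knockout code. The submitters' processing notes name FastQC 0.11.2, Trimmomatic 0.36, HISAT2 2.0, bedtools 2.26.0 and GRCh38; the counting tool and annotation are not given in the sources used here. TPM keeps no depth, so no counting error could be given.

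TPM was transformed to log2(TPM + 1), so fold changes of low genes are understated. Genes reaching 1 TPM in 3 or more libraries were fitted in 1 model of the 4 groups with limma 3.58.1 (R 4.3.3), with a mean-variance trend and Benjamini-Hochberg adjustment within each contrast, at 0.05, two-sided; adjusted p-values in the text are from this fit. The fit was tested on simulated data. Ratios within libraries were compared by exact permutation tests in Python 3.11.15, adjusted over 12 comparisons.

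The members and lists were chosen with earlier results of these data known. Outside the members, the genes named were HIF1A, EPAS1, NLRC5, IRF1, RFX5, TAPBP, PSMB10, HLA-G and CIITA, the 3 genes of every other list that had the lowest p for the dual knockout against vector, and the 5 most correlated with the members' mean; PSMA6 and PSMB4 were named after their values were seen, and 1 gene of the naming rule is not reported here. Same-numbered libraries of the knockout groups deviated together (r of 0.196 to 0.508 over 9 pairs). Those of vector with a knockout group did not all do so (-0.0265 to 0.163). The main fit held the group alone and no pairing. Same-numbered libraries were treated as paired only in the replicate block, which is among the alternatives. The alternatives were a pseudocount of 0.1, no filter, a mean of at least 5 TPM, median ratio scaling, quantile normalization, no trend, the replicate block, the groups of the contrast alone, and leaving out each library or replicate 1 of every group.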

Additional observations from a re-analysis of the deposited data

Results flagged for a closer look

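For 12 named genes the change in HIF1α/2α-ko departed from what the single knockouts add up to, by the interaction term of the limma model. Among the class I heavy chains this was -0.58 for HLA-E (SE 0.16, adjusted p = 0.0241) and -1.03 for HLA-F (SE 0.23, adjusted p = 0.0104). Among the regulators and receptors it was 1.29 for IRF1 (adjusted p = 0.0367) and 0.67 for IFNGR2 (adjusted p = 0.0371). In the proteasome and the loading complex it was -0.79 for PSMB10 (adjusted p = 0.00878), -0.89 for TAPBPL (adjusted p = 0.00908) and -0.71 for PDIA3 (adjusted p = 0.0476). The class II genes HLA-DPA1 and HLA-DPB1 had -1.01 (adjusted p = 0.00392) and -1.86 (adjusted p = 0.000724). UBE2J1 had 0.74 (adjusted p = 0.0308) and PNKD -0.82 (adjusted p = 0.0242). HIF1A itself had 1.15 (adjusted p = 0.0131). An interaction passed in 20.6% of all tested genes. Genes named from the lists were picked by a low p in HIF1α/2α-ko against vector, and those libraries also enter this term. The number of named genes that passed is therefore not an independent count to set beside that share.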

How the results depend on the processing

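The falls of HLA-B and HLA-C and the rise of TAP1 in HIF1α/2α-ko against vector held in all 21 alternatives, and that of TAP2 in all 20 it entered (a mean of at least 5 TPM removed it). The fit to the groups of the contrast alone gives no value for the interaction. TPM keeps no depth, which limits statements on low genes such as TAP2. Except where a value shows it, the cause of a change was not tested.

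Median ratio scaling called 2 of the 9 genes in HIF1α-ko (24% of all genes) and 1 in the interaction (20.6%). In HIF1α-ko it moved the lists to 2 called for other proteasome subunits and 1 for class II. In HIF2α-ko (11.4% of all genes) it moved interferon receptors to 2 called. Over all genes it changed the calls higher and lower from 2031 and 1029 to 1273 and 1531 in HIF1α-ko, from 3732 and 1741 to 2838 and 2606 in HIF1α/2α-ko, and from 3933 and 1509 to 2733 and 2478 in HIF1α/2α-ko against HIF2α-ko. Quantile normalization called 1 in HIF2α-ko (12.7% of all genes), and 2 between the dual knockout and HIF1α-ko (31.1%). The replicate block over all groups called 2 and 4 there (17.6% and 34.8%), the replicate block within the knockout groups called 5 (48.7%), those groups with no block (added after seeing the data) 3 (33%), and the groups of the contrast alone 2 (27.8%). Against HIF2α-ko the knockout groups gave 6 with the block (62.8%) and 5 without it (49.9%).

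Leaving out libraries gave 2 to 7 calls in HIF1α-ko, 0 to 3 in HIF2α-ko, 4 to 6 in HIF1α/2α-ko, 0 to 4 in HIF1α/2α-ko against HIF1α-ko, 2 to 5 against HIF2α-ko and 1 to 3 in the interaction. Over all genes the share called moved too, from 13.2% to 55.4%, 4.02% to 37%, 36.7% to 64.9%, 19.4% to 45.1%, 35.9% to 61.1% and 13.2% to 43% in the same order. In HIF2α-ko the count was 2 without vector replicate 1 and 3 without replicate 1 of every group. Against HIF1α-ko it was 4 without vector replicate 1 or replicate 1 of every group, 2 without vector replicate 2, and 0 without HIF1α-ko replicate 1, HIF1α/2α-ko replicate 2 or HIF1α/2α-ko replicate 3. Against HIF2α-ko it was 2 without HIF2α-ko replicate 2. In the interaction it was 1 without replicate 3 of vector, 1 of HIF1α-ko, 1 or 2 of HIF2α-ko, or 2 or 3 of HIF1α/2α-ko.

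Signs turned only for differences that had not passed. With median ratio scaling TAP1 in HIF2α-ko was 0.032, HLA-E and HLA-F in HIF1α/2α-ko were -0.088 and -0.15, and PSMB8 in HIF1α/2α-ko against HIF2α-ko was -0.22. With quantile normalization the same TAP1 value was 0.032, HLA-F and PSMB9 in HIF1α/2α-ko were -0.17 and -0.0046, and PSMB8 against HIF2α-ko was -0.11. When libraries were left out, B2M ranged from -0.0048 to 0.90 in HIF1α-ko, TAP1 from -0.11 to 0.081 and TAP2 from -0.093 to 0.56 in HIF2α-ko, and HLA-F from -0.068 to 0.24 in HIF1α/2α-ko. Between HIF1α/2α-ko and HIF1α-ko, B2M ranged from -0.15 to 0.82 and PSMB9 from -0.15 to 0.054. Between HIF1α/2α-ko and HIF2α-ko, PSMB8 ranged from -0.014 to 0.16 and PSMB9 from -0.26 to 0.0058. The interaction of HLA-C ranged from -0.18 to 0.64, and the PSMB10 to PSMB7 ratio in HIF2α-ko from -0.033 to 0.12.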
